A study of Mus musculus with 3 samples.

Results

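The 10 genes described here are imprinted genes with known roles in growth or differentiation: Igf2, H19, Dlk1, Meg3, Peg3, Mest, Cdkn1c, Grb10, Plagl1 and Nnat. They were chosen by name, with no measured value in the rule, and all 10 were found among the 32285 genes of the deposited matrices. Their levels were followed over the embryonic stages E13.5, E14.5 and E15.5, named by days after conception, in each cell type of the developing mouse palate that could be recognised by marker genes. The data are single-cell RNA sequencing of palatal shelves from C57BL/6J (wt) embryos, which carry no engineered allele and received no treatment per the labels. There was 1 library per stage, each made from the pooled tissue of 3 embryos, dissociated with TrypLE and fixed in methanol before droplet capture. With 1 library per stage no difference between stages could be tested, and differences between the embryos of a pool cannot be told apart. The palatal shelves are outgrowths of the upper jaw, made of mesenchyme under an epithelium, that lift above the tongue and fuse during these days.

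An imprinted gene is transcribed mainly from the copy inherited from 1 parent, because DNA methylation set in the germ line marks the other copy or a nearby control region. Many imprinted genes act on fetal growth, and a long-standing observation is that genes active on the paternal copy tend to promote growth while genes active on the maternal copy tend to restrain it. Many are strongly transcribed in embryonic mesenchyme, cartilage and muscle and decline after birth. The embryos were of 1 inbred strain, so the copies inherited from the mother and the father carry the same sequence, and the parental origin of the transcripts was not measured.

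A count in these data is a unique molecular identifier (UMI), a tag that stands for 1 captured RNA molecule. Levels are given as CPM, the UMIs of a gene summed over a group of cells and scaled to 1000000 UMIs of that group, with an exact Poisson 95% interval that covers counting error only. CPM is not corrected for gene length, so levels are compared between stages and cell types within a gene and not between genes. A gene is counted as higher or lower when the ratio of its CPM, with 1 CPM added to each, reached 2-fold. Each log2 ratio below is on that scale, and each fold is the plain ratio of CPM with its exact conditional interval. The share of all measured genes past the same fold is given beside the first count for each cell type or pair of cell types. It is not given for single clusters, alternative settings or the split by cell division markers. In mesenchymal-like cells brought to equal depth, the variance of the members' UMIs over cells was 1.06 to 3.67 times the mean, so these intervals are narrower than the spread between cells. The comparisons of E14.5 and E15.5 with E13.5 share the E13.5 library.

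The 3 libraries held 4236, 2079 and 3113 barcodes with median depths of 1735, 1614 and 1699 UMIs, and 3567, 1745 and 2574 cells were kept. Between 1 and 3 barcodes were shared by 2 libraries. Cells with an Xist UMI and no UMI of 4 Y-linked genes numbered 2117, 463 and 1854, and cells with the reverse 0, 426 and 0, so male embryos were seen at E14.5 alone. The 6 higher and 1 lower members of the mesenchymal-like comparison below were the same counts in the former cells alone. Cells were placed in classes by lists of marker genes that hold none of the 10 genes, and the names rest on those markers alone. Mesenchymal-like cells numbered 408, 961 and 1494, which is 11.4%, 55.1% and 58.0% of the libraries. Neuronal-like cells numbered 1441, 94 and 129, which is 40.4%, 5.39% and 5.01%, so the E13.5 library held a different mix of tissue under the same palate label. Stage and this difference in makeup cannot be told apart in any comparison with E13.5. Chondrogenic-like cells numbered 124, 119 and 55, and epithelial-like cells 62, 69 and 174. Osteogenic-like cells (118 and 205), endothelial-like cells (40 and 53) and myeloid-like cells (44 and 77) reached the minimum of 20 cells only at E14.5 and E15.5. The 12 mesenchymal markers summed to 4709, 11446 and 12814 CPM in the mesenchymal-like cells, all 12 with a UMI at each stage. The part of this lower marker level at E13.5 in the results below was not tested.

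**Figure D1:**
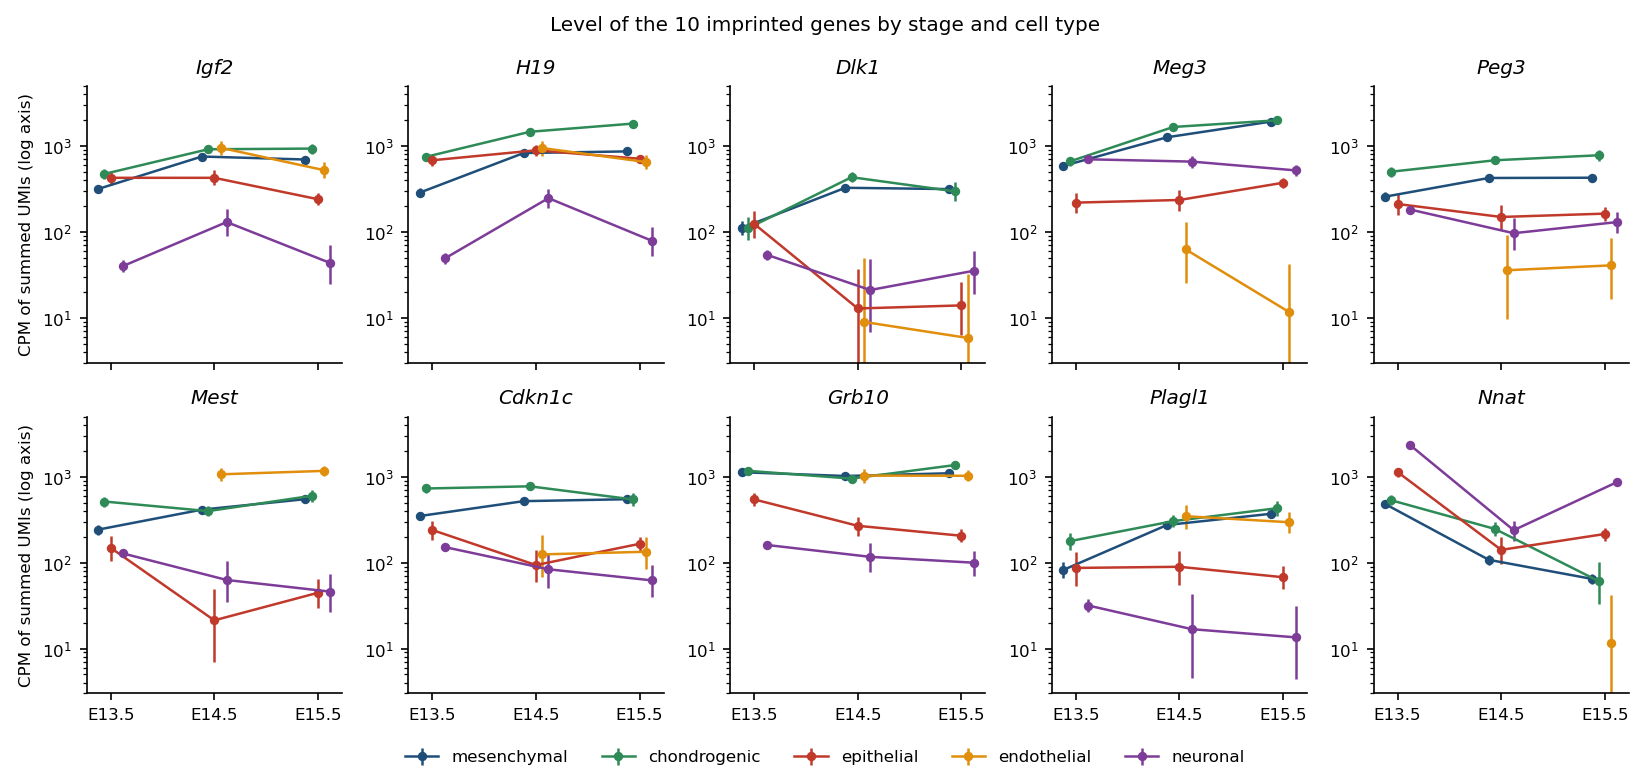
Level of each gene (CPM of summed UMIs, log axis) at the 3 stages in mesenchymal-like, chondrogenic-like, epithelial-like, endothelial-like and neuronal-like cells. Points are 1 library each, bars are exact Poisson 95% intervals, and in mesenchymal-like cells 7 genes sat at their lowest at E13.5 by more than 1.6-fold while Nnat sat at its highest.

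The regulatory sequence just upstream of the transcription start is shown for 5 of the genes. Dlk1, Meg3 and Plagl1 were among those at a higher E15.5 than E13.5 level in mesenchymal-like cells, Nnat was the gene at a lower level, and the windows of Peg3 and Meg3 hold the letters of a motif that was searched. Each window is the 250 bases before a RefSeq start site on GRCm38.p6, read 5′ to 3′ on the gene's strand, in lower case with motif letters in capitals.
Dlk1 (chr12:109452573-109452822, plus strand): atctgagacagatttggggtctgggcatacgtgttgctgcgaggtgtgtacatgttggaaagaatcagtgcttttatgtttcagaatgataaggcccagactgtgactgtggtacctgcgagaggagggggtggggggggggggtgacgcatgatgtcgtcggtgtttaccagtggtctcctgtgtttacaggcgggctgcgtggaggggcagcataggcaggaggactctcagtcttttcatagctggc
Meg3 (chr12:109540746-109540995, plus strand): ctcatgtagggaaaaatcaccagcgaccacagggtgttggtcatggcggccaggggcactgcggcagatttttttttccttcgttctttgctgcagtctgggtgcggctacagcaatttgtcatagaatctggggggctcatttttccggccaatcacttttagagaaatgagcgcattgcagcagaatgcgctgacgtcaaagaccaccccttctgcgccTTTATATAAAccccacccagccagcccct
Peg3 (chr7:6730420-6730669, minus strand): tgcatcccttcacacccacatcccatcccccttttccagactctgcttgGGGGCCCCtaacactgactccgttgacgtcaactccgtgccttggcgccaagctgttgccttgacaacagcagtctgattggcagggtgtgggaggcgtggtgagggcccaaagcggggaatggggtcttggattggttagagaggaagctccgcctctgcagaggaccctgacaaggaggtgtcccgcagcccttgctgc
Plagl1 (chr10:13090582-13090831, plus strand): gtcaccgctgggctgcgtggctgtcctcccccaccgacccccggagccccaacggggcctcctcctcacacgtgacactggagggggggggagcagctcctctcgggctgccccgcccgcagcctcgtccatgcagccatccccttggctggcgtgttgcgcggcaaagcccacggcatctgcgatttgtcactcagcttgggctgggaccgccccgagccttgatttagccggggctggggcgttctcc
Nnat (chr2:157559828-157560077, plus strand): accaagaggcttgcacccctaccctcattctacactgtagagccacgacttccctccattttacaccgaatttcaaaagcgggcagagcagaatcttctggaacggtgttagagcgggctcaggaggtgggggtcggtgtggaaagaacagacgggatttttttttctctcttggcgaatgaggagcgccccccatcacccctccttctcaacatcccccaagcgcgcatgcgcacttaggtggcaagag
The motifs searched on both strands were GGGGCCCC, letters of the kind that PLAGL1 binds, and TATAAA, the TATA box. Of the 10 genes, 8 matched the RefSeq table with 15 windows of 300 bases. GGGGCCCC was found in 1 of them, that of Peg3, against 1.08% of all promoter windows. TATAAA was found in 1 window, that of Meg3, where the letters and those of the other strand (TTTATA) overlap in the capitals, against 13.6% of all windows. A match is a description of the letters and not a binding site. CpG dinucleotides, the sites of DNA methylation, numbered 8, 10, 8, 19 and 12 in the sequences printed for Dlk1, Meg3, Peg3, Plagl1 and Nnat. Over the members' 300-base windows they ranged from 1 to 45, with a median of 7 over all windows of that length.

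Igf2 encodes a secreted insulin-like growth factor that drives fetal growth, and H19 is a long non-coding RNA transcribed from the other parental copy under shared enhancers. On GRCm38 Igf2 lies on chr7:142650766-142666816 and H19 72.6 kb away on chr7:142575529-142578143, both on the minus strand. In mesenchymal-like cells the level of Igf2 was 316 CPM (283 to 353), 754 CPM (718 to 792) and 696 CPM (670 to 723) over the 3 stages in turn. H19 had a level of 287 CPM (255 to 322), 828 CPM (790 to 868) and 865 CPM (835 to 895). Both genes were thus low in the E13.5 library and high in the other two, with no overlap of the intervals. From E13.5 to E15.5 the level of Igf2 was 2.20-fold higher (1.96 to 2.48) and that of H19 3.02-fold higher (2.68 to 3.41). From E14.5 to E15.5 the log2 ratios were -0.12 for Igf2 and 0.06 for H19, so the difference lay between the first and the second stage. Igf2 overlaps the antisense gene Igf2os, and reads of the 2 genes could be told apart only by strand, which the sources used here do not describe.

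Dlk1 encodes a membrane protein related to Notch ligands that holds back differentiation in several lineages, and Meg3 is the non-coding RNA expressed from the opposite parental copy of the same domain. They lie 77.7 kb apart on the plus strand, Dlk1 at chr12:109452823-109463336 and Meg3 at chr12:109541001-109571726. The level of Dlk1 in mesenchymal-like cells was 111 CPM (91.5 to 133), 326 CPM (302 to 351) and 315 CPM (297 to 333) over the 3 stages. The level of Meg3 was 587 CPM (541 to 636), 1264 CPM (1217 to 1313) and 1922 CPM (1878 to 1967). Dlk1 thus reached a level at E14.5 that it held, while Meg3 was higher again at E15.5. The E15.5 level was 2.83-fold (2.34 to 3.47) that of E13.5 for Dlk1 and 3.27-fold (3.01 to 3.56) for Meg3, and between the last 2 stages Meg3 differed by 1.52-fold (1.45 to 1.59). Rian, the non-coding RNA downstream of Meg3 in the same cluster, stood at 223, 437 and 707 CPM.

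Plagl1 encodes a zinc finger transcription factor that is known to act on other imprinted genes, among them Igf2 and Cdkn1c. It lies at chr10:13060504-13131694 on the plus strand. Its level was 82.5 CPM (65.8 to 102), then 275 CPM (253 to 298), then 371 CPM (352 to 391), each stage above the one before. The fold from E13.5 to E15.5, 4.50 (3.61 to 5.68), was the largest among the genes that were higher.

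Cdkn1c and Grb10 are restrainers of growth, both expressed mainly from the maternal copy in most tissues. Cdkn1c encodes an inhibitor of cyclin-dependent kinases and lies at chr7:143458339-143461050, 792 kb from Igf2 in a separately controlled domain. Its level was 350 CPM (314 to 388), 521 CPM (491 to 552) and 549 CPM (525 to 573), a fold of 1.57 (1.40 to 1.76) from E13.5 to E15.5. Grb10 encodes an adaptor that dampens signalling from the insulin and insulin-like growth factor receptors, and lies at chr11:11930508-12038683. It had levels of 1133 CPM (1069 to 1201), 1023 CPM (980 to 1067) and 1101 CPM (1068 to 1135). Grb10 was the 1 member whose interval between E13.5 and E15.5 held no difference, with a fold of 0.972 (0.910 to 1.04). Transcripts of Grb10 from its separate promoters, which differ in the parental copy used in neurons, are summed in these counts.

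Mest and Peg3 are expressed from the paternal copy. Mest, which encodes a protein of the hydrolase fold and is a long-used mesoderm marker, lies at chr6:30723547-30748465 and overlaps Copg2 on the other strand. Its level was 243 CPM (213 to 275), 415 CPM (388 to 443) and 550 CPM (526 to 574), a fold of 2.27 (1.98 to 2.60) from the first stage to the last. Copg2 was measured at 64.8, 75.3 and 70.2 CPM in the same cells. Peg3, a zinc finger gene at chr7:6703892-6730431, stood at 257, 424 and 427 CPM, a fold of 1.66 (1.46 to 1.90). Neither gene passed 2-fold at a single step: Mest stood at 1.71-fold and then 1.33-fold, and Peg3 at 1.65-fold and then 1.01-fold.

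Nnat encodes neuronatin, a small membrane protein of the endoplasmic reticulum that is abundant in developing neurons, and lies at chr2:157560078-157562522 inside Blcap, which is transcribed from the other strand. It ran against the others in mesenchymal-like cells, with 482 CPM (440 to 527) in the first library, 108 CPM (94.6 to 123) in the second and 64.6 CPM (56.7 to 73.3) in the last. The E13.5 level was 7.46-fold (6.38 to 8.74) that of E15.5. Blcap stood at 23.6, 15.4 and 24.3 CPM, with no such course. In the same mesenchymal-like cells the 12 neuronal markers, all with a UMI at each stage, summed to 410, 221 and 167 CPM, and the part of neuronal RNA in the Nnat level was not tested. At E13.5 2 cell types that should lack Nnat, each with under 20 cells, gave different values. In 15 myeloid-like cells the level was 826 CPM (565 to 1166), or 545 CPM without the top cell. A UMI of Nnat was found in 8 of these 15 cells, which is 53.3% (26.6% to 78.7%) at a median depth of 2060 UMIs, against 49.5% of mesenchymal-like cells at 1991 UMIs. In 9 endothelial-like cells, with a median depth of 1836 UMIs, 1 cell (11.1%, 0.281% to 48.2%) held all 9 UMIs. With so few cells the background of Nnat in the E13.5 library was not settled, and the E13.5 level in mesenchymal-like cells cannot be told apart from it. Neuronal-like cells held Nnat at 2346 CPM at E13.5, the highest level of any cell type and stage. With predicted doublets kept, the log2 ratio of Nnat from E13.5 to E15.5 in mesenchymal-like cells was -2.10, against -2.88 without them.

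Of the 10 genes in mesenchymal-like cells, 6 were past 2-fold upward between E13.5 and E15.5 (Igf2, H19, Dlk1, Meg3, Mest and Plagl1), where 9.96% of the 11459 genes measured were. Only Nnat was at least 2-fold lower, with its E13.5 background not settled, where 5.26% of genes were. The members' median log2 ratio was 1.16, against -0.03 over all genes. Between E13.5 and E14.5, 5 members were higher and 1 was lower, against 8.28% and 4.11% of genes. Between E14.5 and E15.5, the comparison that does not use the E13.5 library, none of the 10 was past 2-fold in either direction, against 1.50% of genes higher and 1.48% lower. The 10 genes together took 0.385%, 0.594% and 0.686% of the UMIs of mesenchymal-like cells at the 3 stages.

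**Figure D2:**
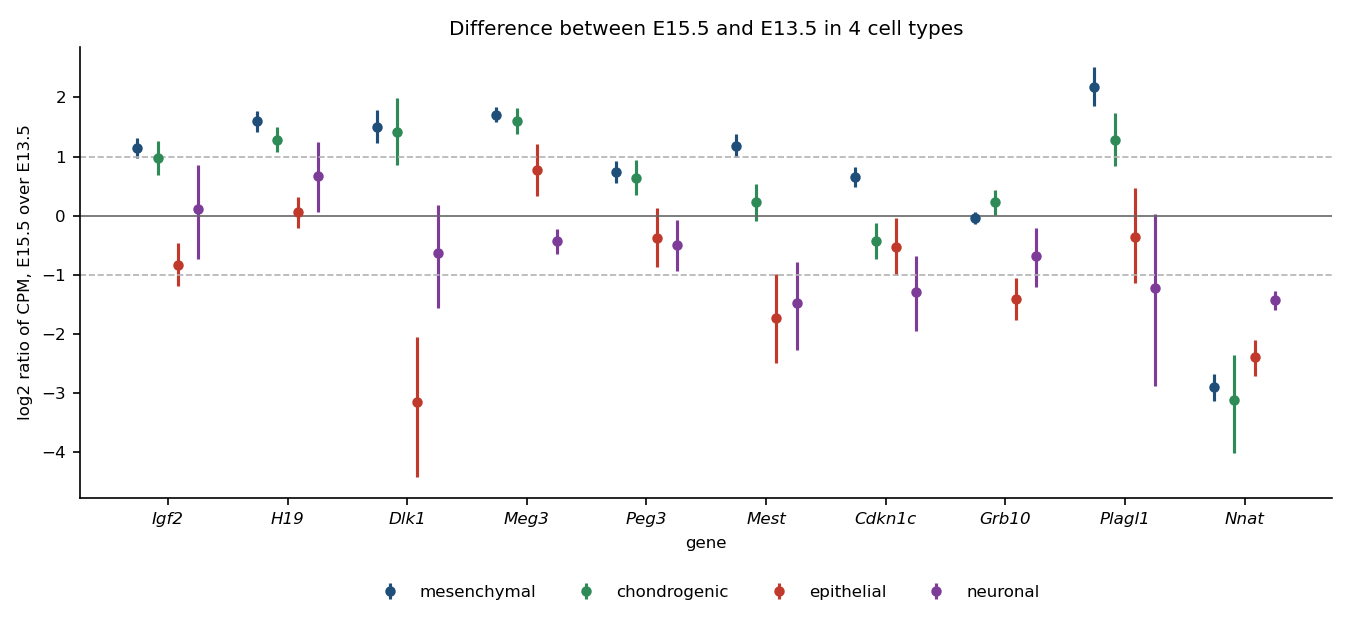
Log2 ratio of CPM between E15.5 and E13.5 for each gene in mesenchymal-like, chondrogenic-like, epithelial-like and neuronal-like cells, with exact conditional 95% intervals for counting error. Dashed lines mark 2-fold: in mesenchymal-like cells 6 genes lie above the upper line and Nnat alone below the lower one, while no gene lies above it in epithelial-like or neuronal-like cells.

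The mix of mesenchymal-like cells also differed between the libraries, so the stages were compared within clusters made without the 10 genes. Of 8 clusters with at least 20 mesenchymal-like cells at each of the later stages, 4 also had as many at E13.5, and these held 81.9%, 58.9% and 60.5% of the mesenchymal-like cells. Cluster 4, led by the embryonic globin genes Hbb-y and Hba-x, held 49.3% of the mesenchymal-like cells at E13.5 and 9.26% and 8.10% later. Cluster 16 was led by the cell division genes Prc1, Cenpf and Top2a, and cluster 3 by Ubash3a, Zfp112 and Dqx1. Cluster 10 had Gpc5 and Pgm5 among its leading genes. Igf2 was past 2-fold upward between E13.5 and E15.5 in 4 of the 4 clusters, with log2 ratios of 1.42 to 1.85. H19 (1.56 to 2.29), Meg3 (1.14 to 2.27) and Plagl1 (1.52 to 3.16) were likewise higher in 4 of 4. The E13.5 end of some of these ratios was thin, with 4 Plagl1 UMIs each in clusters 3 and 10 and 8 H19 UMIs in cluster 10. Dlk1 had log2 ratios of 2.00 to 2.70 in 3 clusters, and in cluster 10, where it had 0 UMIs in 23 cells at E13.5, its E15.5 level was at least 5.44-fold that of a floor of 3 UMIs. The higher E15.5 level of these 5 genes was also seen within single clusters. Whether the cells of a cluster were of the same kind at each stage was not tested. Mest passed 2-fold in 3 clusters, Peg3 and Cdkn1c in 2 each and Grb10 in 0, with Grb10 between -0.39 and 0.08. Nnat was lower in 4 of 4, at -3.51 to -2.61. With the 4 clusters held at 1 fixed mix over the stages, a calculation added after the data were seen, the log2 ratios were 1.62 for Igf2, 1.85 for H19, 2.53 for Dlk1 and 1.80 for Meg3, and Peg3 passed 2-fold at 1.01.

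**Figure D3:**
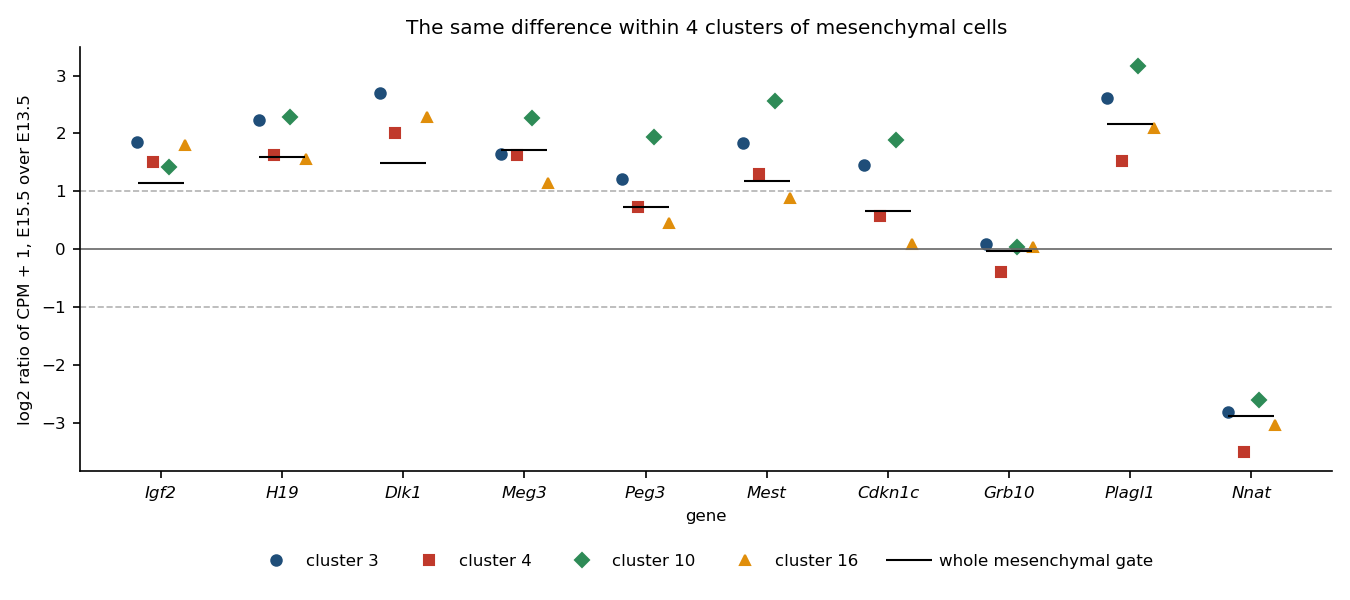
Log2 ratio of CPM (with 1 CPM added) between E15.5 and E13.5 for each gene within the 4 clusters of mesenchymal-like cells that had at least 20 cells at every stage, with the value over all mesenchymal-like cells as a black line. Dlk1 in cluster 10 is left out because it had 0 UMIs there at E13.5; Igf2, H19, Meg3 and Plagl1 lie above the 2-fold line in 4 of 4 clusters, Grb10 lies near 0 and Nnat lies below the lower line in 4 of 4.

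Levels also ranged between the mesenchymal-like clusters of 1 stage. Meg3, Plagl1, Dlk1 and Igf2 had the same highest and the same lowest of the 8 clusters at E14.5 as at E15.5, while the other 6 members changed at least 1 of these ends. Meg3 was highest in cluster 10, at 2050 and 3324 CPM, and lowest in cluster 3, at 513 and 754 CPM, a range of 3.99-fold and 4.41-fold. Plagl1 had the same highest and lowest clusters, with 553 and 714 CPM against 110 and 203 CPM. At E14.5 its lowest level, from 46 UMIs, was close to those of cluster 16 (150 CPM, 31 UMIs) and cluster 21 (156 CPM, 23 UMIs). Dlk1 was highest in cluster 4, at 561 CPM (452 to 688) and 662 CPM (563 to 772), and lowest in cluster 20, a cluster led by Ptgds, Cntn6 and Cpa6, at 107 and 130 CPM. Igf2 had the same pair of clusters at its ends, with 1214 and 1199 CPM in cluster 4 and 538 and 466 CPM in cluster 20. At E14.5 the interval of this lowest Igf2 level, 438 to 654 CPM, held the levels of cluster 16 (607 CPM) and cluster 21 (623 CPM). In cluster 10, where its neighbour Meg3 was highest, Dlk1 stood at 500 and 322 CPM, and in cluster 22 at 535 and 410 CPM, so at E14.5 its highest level was not apart from either. At E15.5 its lowest level was shared by cluster 6, also at 130 CPM.

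Chondrogenic-like cells, which carry cartilage collagens, had a similar course at higher levels of H19. Igf2 stood at 473, 916 and 933 CPM in them, and H19 at 749, 1464 and 1826 CPM. Dlk1 was measured at 110, 433 and 296 CPM, Meg3 at 660, 1666 and 1992 CPM, and Plagl1 at 178, 305 and 431 CPM. Of the 10 genes, 4 (H19, Dlk1, Meg3 and Plagl1) were past 2-fold upward between E13.5 and E15.5, where 18.4% of genes were, and Nnat alone was lower, where 14.2% were. Igf2 was just under the threshold, at a log2 ratio of 0.98. In chondrogenic-like cells the mesenchymal markers summed to 2357, 7040 and 8603 CPM and the osteogenic markers to 298, 890 and 1434 CPM. The neuronal markers summed to 434, 217 and 161 CPM. The part of these differences in the levels was not tested. Cdkn1c, with 732, 776 and 545 CPM, had a log2 ratio of -0.43, the opposite sign to mesenchymal-like cells. Nnat was 8.73-fold (5.10 to 16.2) lower at E15.5, from 533 CPM through 247 CPM to 61.0 CPM, the last from 14 UMIs in 6 cells. The E13.5 level lay below the 826 CPM of the 15 myeloid-like cells of that library. The Nnat background, not settled at E13.5, thus applies to chondrogenic-like cells too. Of the 124 Nnat UMIs at E14.5, 67 came from 1 cell, without which the level was 128 CPM. Relative to mesenchymal-like cells of the same library, H19 was 2.61-fold, 1.77-fold and 2.11-fold higher in chondrogenic-like cells and Peg3 1.95-fold, 1.61-fold and 1.83-fold higher.

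Osteogenic-like cells, which carry genes of the bone-forming lineage, could be compared at E14.5 and E15.5. H19 stood there at 1401 and 1218 CPM, 1.69-fold and 1.41-fold the mesenchymal-like level. Dlk1 stood at 159 and 174 CPM, which is 0.489 and 0.553 of the mesenchymal-like level. Meg3 stood at 668 CPM at E14.5 and 1403 CPM at E15.5, a fold of 2.10 (1.86 to 2.37). Grb10 was measured at 1223 and 1460 CPM and Cdkn1c at 708 and 603 CPM. Meg3 was 0.529 and 0.730 of the mesenchymal-like level.

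Epithelial-like cells had a different course, with no member past 2-fold upward between E13.5 and E15.5 and 4 members lower (Dlk1, Mest, Grb10 and Nnat), where 18.8% of genes were higher and 10.5% lower. Grb10 was measured at 546, 269 and 206 CPM, which is 2.65-fold (2.06 to 3.39) lower at E15.5. Mest stood at 149, 21.3 and 44.6 CPM, 3.33-fold (1.99 to 5.64) lower. Dlk1 stood at 124, 12.8 and 13.9 CPM from 30, 3 and 9 UMIs, and Nnat at 1137, 141 and 216 CPM. These levels rest on few cells and, for the latter pair, on single cells at E13.5. Of the 30 Dlk1 UMIs at E13.5, 19 came from 1 cell, without which the level was 47.5 CPM, and of the 275 Nnat UMIs 144 came from 1 cell, without which it was 565 CPM. The Nnat background of the E13.5 library, which was not settled, applies to this level too. With the top cell of each library left out the 4 genes stayed at least 2-fold lower, at log2 ratios of -2.46 for Dlk1, -1.82 for Mest, -1.37 for Grb10 and -2.14 for Nnat. With 1 more marker required per cell, 2 genes were lower (Dlk1 at -1.63 and Grb10 at -1.24). With epithelial-like clusters in place of marker-chosen cells, Nnat alone was lower at -1.09, Dlk1 was at -0.19 and Meg3 was higher at 1.22. The neuronal markers summed to 265, 218 and 81.6 CPM in these cells and the mesenchymal markers to 811, 1207 and 1224 CPM, and their part in the levels was not tested. H19 did not share the course, with 682, 891 and 710 CPM and a log2 ratio of 0.06.

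At the later stages the epithelial-like level of Dlk1 and Mest was far below that of mesenchymal-like cells, while that of H19 was within 2-fold of it. At E13.5 H19 was 2.38-fold (1.95 to 2.89) higher in epithelial-like cells, Dlk1 stood at 1.12-fold (0.721 to 1.68) and Mest at 0.614-fold (0.420 to 0.873) the mesenchymal-like level. At E15.5 mesenchymal-like cells exceeded epithelial-like cells by 22.7-fold (11.9 to 49.8) for Dlk1 and by 12.3-fold (8.54 to 18.4) for Mest, but by 1.22-fold (1.11 to 1.35) for H19. At E14.5 the folds for Dlk1 and Mest were 25.5 (8.67 to 124) and 19.4 (8.30 to 60). Plagl1, Grb10 and Meg3 lay between, at 5.48-fold, 5.34-fold and 5.16-fold at E15.5. Nnat went the other way, with 3.34-fold (2.69 to 4.12) more in epithelial-like cells at E15.5. Of the 140 Nnat UMIs in these cells, 58 came from 1 cell. Without the top cell of each type the levels were 128 CPM in epithelial-like and 59.0 CPM in mesenchymal-like cells. Among cells brought to equal depth, a Nnat UMI was found in 7.52% (3.66% to 13.4%) of epithelial-like cells. The share in mesenchymal-like cells was 6.52% (4.99% to 8.34%).

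Endothelial-like cells, which line blood vessels, carried Mest, Igf2, H19, Grb10 and Plagl1 but little of the Dlk1–Meg3 locus. Mest was measured in them at 1070 CPM (888 to 1280) at E14.5 and 1174 CPM (1018 to 1348) at E15.5, which is 2.58-fold (2.12 to 3.13) and 2.14-fold (1.84 to 2.47) the mesenchymal-like level. It was the 1 member at least 2-fold higher in endothelial-like than in mesenchymal-like cells at each of these stages, where 17.9% and 15.9% of genes were. At E15.5 1 endothelial-like cell held 31 of the 202 Mest UMIs, and with the top cell of each type left out the levels were 1055 and 543 CPM, under 2-fold. Dlk1, Meg3, Peg3, Cdkn1c and Nnat were at least 2-fold lower at both stages, 5 of 10, where 26.4% and 24.8% of genes were. Dlk1 had 1 UMI at each stage, and Meg3 had 7 and 2 UMIs (62.4 and 11.6 CPM), 20.2-fold (9.81 to 50.4) below mesenchymal-like cells at E14.5. Peg3 was 11.9-fold (4.63 to 43.7) and 10.5-fold (5.08 to 26.1) lower. Grb10, at 1035 and 1029 CPM, stood at 1.01-fold (0.832 to 1.22) and 0.934-fold (0.799 to 1.09) the mesenchymal-like level, so no difference was detectable at this depth. Nnat had 0 UMIs at E14.5, where 3 UMIs would be 26.8 CPM and the exact interval ends at 32.9 CPM, and 11.6 CPM at E15.5. Igf2 stood at 954 and 523 CPM.

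Myeloid-like cells, which arise outside the palate, had the lowest level of most members at the 2 later stages. At E14.5 and E15.5, except for Meg3 and Nnat at the former, the 10 genes ranged from 0 to 70.3 CPM in them, with Dlk1 and Plagl1 at 0 UMIs at E15.5, where 3 UMIs would be 15.1 CPM and the exact interval ends at 18.5 CPM. Those 2 exceptions came from single cells: 14 of 19 Meg3 UMIs (173 CPM, or 48.9 CPM without that cell) and 32 of 33 Nnat UMIs (300 CPM, or 9.79 CPM without it). Mesenchymal-like cells were at least 2-fold higher than myeloid-like cells for 9 of 10 genes at E14.5 and for 10 of 10 at E15.5, where 31.0% and 31.8% of all genes were. The exception at E14.5 was Nnat. The members' summed share of UMIs in myeloid-like cells was 0.0699% at E14.5 and 0.0206% at E15.5.

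Neuronal-like cells carried Nnat and Meg3 and less Igf2 and H19 than mesenchymal-like cells. Nnat had levels of 2346 CPM (2300 to 2393), 239 CPM (181 to 310) and 871 CPM (779 to 972). This was 4.87-fold (4.44 to 5.34) the mesenchymal-like level of the first stage and 2.21-fold that of the second, and at the third it was 871 CPM against 64.6 CPM. At E15.5, 2 cells held 48.8% of the Nnat UMIs, and without the top cell the level was 584 CPM. Meg3 was measured at 700, 658 and 520 CPM. Igf2 stood at 40.0, 130 and 43.3 CPM, and mesenchymal-like cells exceeded this by 7.90-fold, 5.81-fold and 16.1-fold. H19 stood at 49.0, 247 and 78.5 CPM. Both genes were at their highest at E14.5, 3.25-fold (2.14 to 4.78) above E13.5 for Igf2 and 5.05-fold (3.71 to 6.77) for H19, with log2 ratios of 1.39 and 1.21 without the top cells. Mesenchymal-like cells also held more Grb10, by 7.03-fold, 8.72-fold and 11-fold. Between E13.5 and E15.5 none of the 10 was higher in neuronal-like cells and 4 were lower (Mest, Cdkn1c, Plagl1 and Nnat), where 19.7% and 15.7% of genes were. Plagl1 rested on 5 UMIs at E15.5, and its interval held no difference. With the top cell of each library left out, Dlk1 and Grb10 passed the fold as well, at -1.21 and -1.06. The neuronal-like cells at E13.5 outnumbered the later ones more than 10-fold, and whether they are the same kinds of neurons was not tested. Neural progenitor-like cells, present in number at E13.5 alone, held 984 CPM of Nnat, 580 CPM of Grb10 and 18.5 CPM of Igf2.

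**Figure D4:**
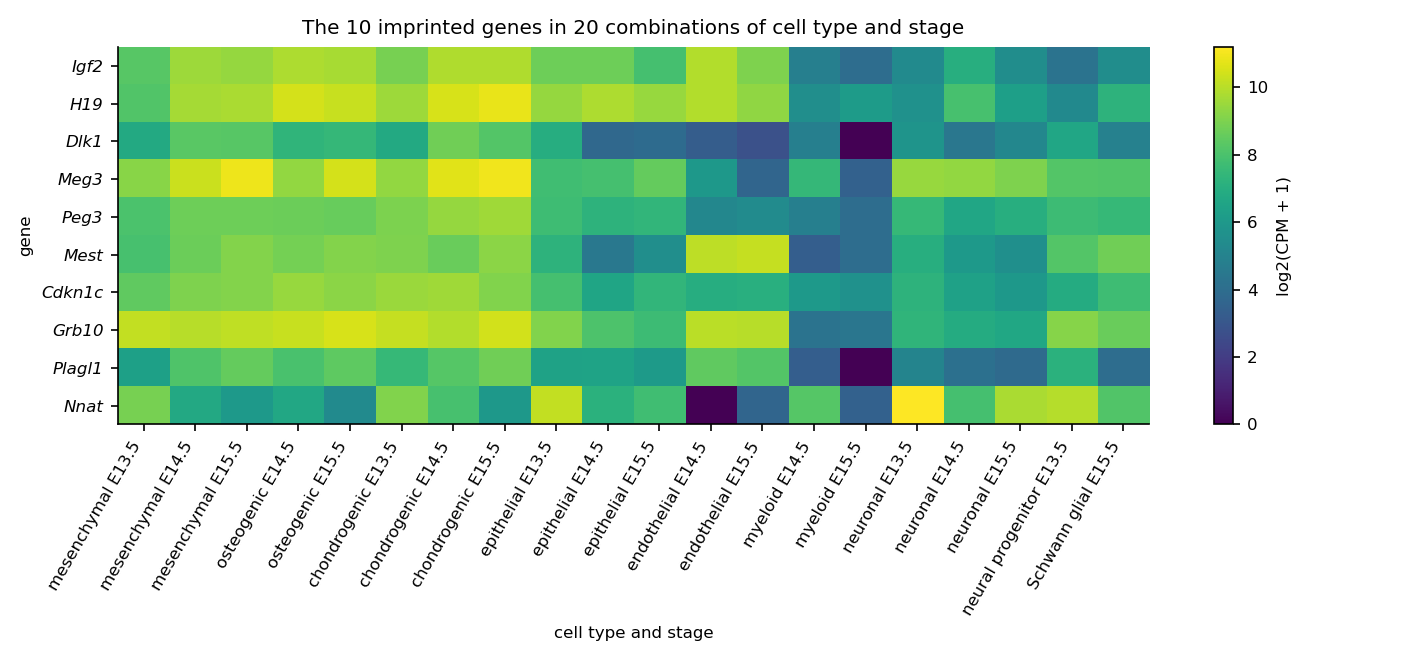
Level of the 10 genes, as log2(CPM + 1), in the 20 combinations of cell type and stage with at least 20 cells. Igf2 and H19 are high in mesenchymal-like, osteogenic-like, chondrogenic-like, epithelial-like and endothelial-like cells, Mest is at its highest in endothelial-like cells, Nnat in neuronal-like cells, and myeloid-like cells are low for most genes.

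The order of the cell types differed from gene to gene. At E15.5 Igf2 was highest in chondrogenic-like and osteogenic-like cells, whose intervals overlapped, then in mesenchymal-like, endothelial-like and epithelial-like cells in turn, with Schwann-like, neuronal-like and myeloid-like cells low and each not apart from its neighbour. The order for H19 was chondrogenic-like, osteogenic-like and mesenchymal-like, then epithelial-like and endothelial-like cells, which were not apart. Meg3 was highest in chondrogenic-like and mesenchymal-like cells, which were not apart, then in osteogenic-like and neuronal-like cells in turn. Dlk1 was highest in mesenchymal-like and chondrogenic-like cells, followed by osteogenic-like cells, and the other 5 cell types were not apart from their neighbours. Peg3 was highest in chondrogenic-like cells and Cdkn1c in osteogenic-like cells, each above the next type. Plagl1 was highest in chondrogenic-like cells, then in mesenchymal-like, osteogenic-like and endothelial-like cells, each not apart from its neighbour in that order. Grb10 was highest in osteogenic-like and chondrogenic-like cells, then in mesenchymal-like and endothelial-like cells. Mest was highest in endothelial-like cells alone, and Schwann-like cells, at 430 CPM, were among the next 4 types. Nnat was highest in neuronal-like cells, then in Schwann-like and epithelial-like cells. The Schwann-like level rested on 19 UMIs in 23 cells, 11 of them in 2 cells, and 2 epithelial-like cells held 61.4% of the UMIs there.

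The differences between stages could come from more cells with the transcript or from more transcript per cell, and shares of cells were compared after each cell was thinned to 1500 UMIs. This kept 262, 552 and 890 mesenchymal-like cells and left out 146, 409 and 604 shallower ones. A UMI of Igf2 was found in 37.4%, 56.5% and 54.2% of thinned cells (45.1%, 64.0% and 62.8% before thinning). For H19 the shares were 34.0%, 55.6% and 59.6% (39.5%, 61.6% and 65.7%). For Plagl1 they were 11.5%, 26.3% and 33.4% (15%, 30.9% and 40.0%). The shares followed the levels, but thinned cells held few UMIs of a gene, on average 0.504 of Igf2 and 0.126 of Plagl1 at E13.5. At such means a share largely follows the level. The shares therefore do not separate more cells from more transcript per cell, which was not tested. Meg3 was found in 44.3%, 66.3% and 75.6% of thinned cells (55.6%, 70.9% and 81.1%) and Dlk1 in 13.4%, 28.4% and 31.1% (16.9%, 36.1% and 36.7%). Nnat was found in 46.2%, 12% and 6.52% of thinned cells (49.5%, 139 of 961 cells and 9.77% before thinning). In the 26 and 43 thinned myeloid-like cells of E14.5 and E15.5, Igf2 was found in 7.69% and 4.65%, H19 in 3.85% and 2.33%, and Meg3 in 11.5% and 0%, the last with an exact upper bound of 8.22%. Before thinning the median depths of all myeloid-like cells were 1830 and 1672 UMIs, against 1716 and 1814 in all mesenchymal-like cells. For Nnat the myeloid-like shares were 7.69% and 2.33% (2 and 1 cells), and at E15.5 the mesenchymal-like level was 6.44-fold (1.76 to 53.5) the myeloid-like one, which rested on 2 UMIs.

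**Figure D5:**
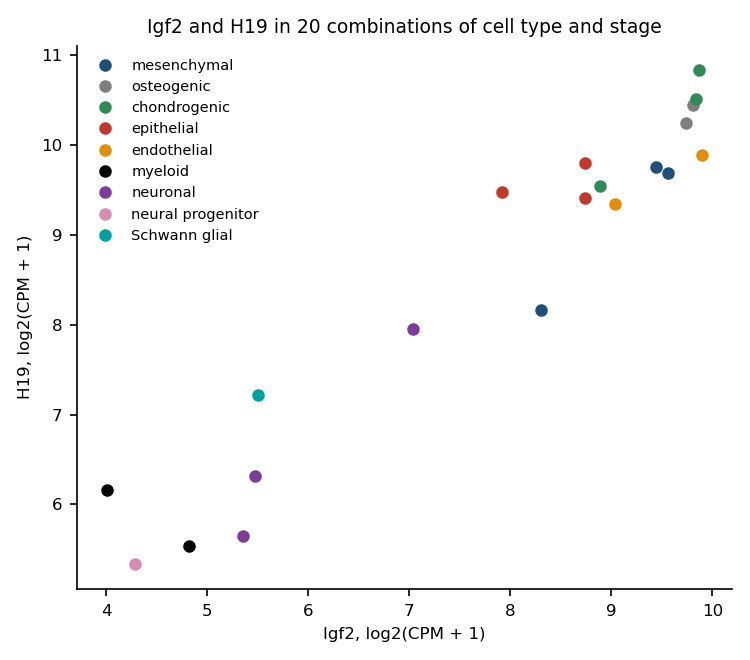
Level of H19 against Igf2, both as log2(CPM + 1), in the 20 combinations of cell type and stage with at least 20 cells, coloured by cell type. Pearson's r was 0.97 as a description, with myeloid-like, neural progenitor-like and neuronal-like cells of E13.5 and E15.5 at the low end of both genes and chondrogenic-like and osteogenic-like cells at the high end.

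Over the 20 combinations of cell type and stage, which share libraries and depth and are not independent, Igf2 and H19 had a Pearson r of 0.97 on the log2(CPM + 1) scale. Dlk1 and Meg3 had an r of 0.87, Grb10 and Plagl1 0.91, Mest and Grb10 0.90, and Nnat and H19 -0.40. Among 5204 genes ranked for likeness over the same combinations, H19 was the gene most like Igf2, and Airn, the antisense non-coding RNA of the imprinted Igf2r locus, came next at 0.94. The gene most like Meg3 was Rian at 0.97, from the same cluster, and for Dlk1 the order was Peg3 at 0.90, Gria3 at 0.89 and Rian at 0.89. The genes most like Nnat were Rimklb at 0.90, then Rims2 and Cirbp at 0.89. For Mest the order was Ldb2 at 0.95, Fkbp7 at 0.94 and Tspan18 at 0.93, and for Grb10 Plpp3 and Fstl1 at 0.94 and Kirrel at 0.93. Peg3 was followed by Sdk2, Tenm3 and Lrp6 at 0.95, Cdkn1c by Morf4l2 at 0.95 and Bmp5 at 0.94, and Plagl1 by Prkd1 at 0.94.

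Within mesenchymal-like cells thinned to equal depth the partners of a locus were only weakly related cell by cell. For Igf2 and H19 the r over cells was 0.14, 0.41 and 0.31 over the 3 stages (262, 552 and 890 cells). An H19 UMI was found in 66.3% of cells with an Igf2 UMI and in 41.7% of cells without at E14.5, and in 68.3% against 49.3% at E15.5. At E13.5 the shares were 36.7% and 32.3%. For Dlk1 and Meg3 the r was 0.11, 0.17 and 0.18. At 1500 UMIs per cell such values are a description of sparse counts.

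Cdkn1c is known to act against the cell cycle, and the members were therefore also compared between mesenchymal-like cells with UMIs of at least 3 of 12 cell division markers (61, 123 and 156 cells) and cells with none (237, 646 and 1032). Median depths were 3361, 2371 and 3168 UMIs in the former and 1653, 1535 and 1634 in the latter. Cdkn1c had log2 ratios of 0.10, -0.17 and -0.18, with fold intervals of 0.824 to 1.39, 0.753 to 1.05 and 0.775 to 0.999. Meg3 was lower in the dividing cells at each stage, with log2 ratios of -0.77, -0.57 and -0.72 and fold intervals of 0.461 to 0.739, 0.600 to 0.754 and 0.562 to 0.653. Grb10 was also lower at each stage, by less, with log2 ratios of -0.42, -0.47 and -0.13. Nnat stood at 606 CPM in dividing cells against 346 CPM in the others at E13.5 (fold interval 1.39 to 2.19), with intervals that held no difference at the later stages. The values of the 10 genes lay within 2-fold between these cells at each stage. The share of all genes past that fold was not computed for this split, so the members are not set against it.

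Other imprinted genes lay on both sides. Of a list of 34, 25 reached 5 CPM on average in mesenchymal-like cells, and 6 of these were at least 2-fold higher and 3 lower over the same interval, against 9.96% and 5.26% of all genes, with a median log2 ratio of 0.11. The same shares apply to the next 2 lists. The average spans the stages compared, so a gene could be counted through the stage where it was high. Dio3 at E13.5 (2.95 CPM) and Snrpn at E15.5 (2.94 CPM) were under 5 CPM. The largest ratios were those of Dio3, the deiodinase gene at the far end of the Dlk1 domain (2.95 CPM at E13.5 to 30.7 CPM at E15.5, log2 ratio 3.01), Zim1, a neighbour of Peg3 (8.84 to 45.9 CPM, 2.25), and Rian (1.66). Dio3 and Zim1 started from 3 and 9 UMIs at E13.5, with fold intervals of 3.48 to 51.3 and 2.67 to 11.6, which overlap. The smallest were those of Snrpn, a splicing factor gene (22.6 to 2.94 CPM, -2.58), Peg12 (18.7 to 6.68 CPM, -1.36) and Peg10, a gene derived from a retrotransposon (85.4 to 35.8 CPM, -1.23). Of 15 genes of insulin-like growth factor signalling 14 were counted, 4 higher and 1 lower, with a median of 0.61. The binding protein gene Igfbp7 had the largest ratio (5.89 to 82.5 CPM, 3.60), followed by the adaptor gene Irs1 (26.5 to 65.2 CPM, 1.27) and the growth factor gene Igf1 (153 to 340 CPM, 1.15). Igfbp7 had 6 UMIs at E13.5, with a fold interval of 6.36 to 38.5. The lowest was Igf2bp1, which encodes a protein that binds Igf2 mRNA (167 to 77.4 CPM, -1.10), and the other two of that family, Igf2bp3 and Igf2bp2, had -0.54 and 0.12. The receptor genes Igf1r (358 to 469 CPM, 0.39) and Igf2r (90.3 to 128 CPM, 0.49) were under 2-fold. Of 7 cyclin-dependent kinase inhibitor genes 4 were counted, and only Cdkn2c passed 2-fold (3.93 to 10.9 CPM, 1.28), while Cdkn1b had 0.39 and Cdkn2d -0.46. The Cdkn2c ratio rested on 4 UMIs at E13.5, with a fold interval of 1.01 to 10.7.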

How the data were processed

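UMI counts per gene and cell barcode were used as deposited, whole numbers that the authors made with Cell Ranger 6.1.2 on mm10, per the submitters' processing notes. The annotation, the strand setting and the chemistry are not given in the sources used here. Barcodes with under 500 genes (544, 304 and 473) or over 20% mitochondrial UMIs (0) were left out. Scrublet's own threshold called 0, 0 and 2 doublets, a threshold that did not work, and cells were instead dropped from the top of the score at 0.8% per 1000 barcodes (125, 30 and 66 cells). A cell was placed in the class with the highest share of its markers with a UMI, given at least 3 markers and 1.5 times the share of the next class; mesenchymal, osteogenic and chondrogenic cells first competed as 1 lineage. This rule was settled after the files were seen, from the markers alone. Globin UMIs were found in most cells, so no erythroid class was made. Clusters came from 2000 variable genes without the 10 members, 30 principal components, 15 neighbours and Leiden resolution 1 (scanpy 1.11.5, igraph 0.11.9, python 3.11.15, numpy 2.4.6, scipy 1.17.1, pandas 2.3.3, matplotlib 3.10.9). UMIs were summed per class and library, and with 1 library per stage no test was run. The fold rule was tested on simulated data. Of the other lists, genes at 5 CPM or more on average were counted and the 3 largest and 3 smallest ratios named; likeness named up to 3 genes per member. Gene positions are from GENCODE vM21, which held 32158 of the 32285 gene IDs, and promoters from RefSeq. Members, lists and rules were chosen with earlier results of these data known.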

Additional observations from a re-analysis of the deposited data

Results flagged for a closer look

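Several genes were at least 2-fold higher in 1 cell type and at least 2-fold lower in another over the same stages. Each difference between cell types rests on 1 library per stage and was not tested. The values are log2 ratios with 1 CPM added. For Dlk1 from E13.5 to E15.5 the ratio was 1.49 in mesenchymal-like and 1.42 in chondrogenic-like cells against -3.07 in epithelial-like cells. From E13.5 to E14.5 it was 1.54 in mesenchymal-like and 1.96 in chondrogenic-like cells against -3.18 in epithelial-like and -1.33 in neuronal-like cells. The epithelial-like values start from 30 Dlk1 UMIs at E13.5, of which 19 lay in 1 cell. The neuronal-like value ends at 5 Dlk1 UMIs in 3 of 94 cells at E14.5. For Mest from E13.5 to E15.5 the ratio was 1.18 in mesenchymal-like cells against -1.72 in epithelial-like and -1.46 in neuronal-like cells. With epithelial-like clusters in place of marker-chosen cells the epithelial-like ratios from E13.5 to E15.5 were -0.19 for Dlk1 and -0.76 for Mest, under 2-fold, and with 1 more marker required that of Mest was -0.94. For Nnat from E14.5 to E15.5 the ratio was 1.86 in neuronal-like cells against -1.35 in osteogenic-like, -2.0 in chondrogenic-like and -4.77 in myeloid-like cells. Single cells carried much of these Nnat values. At E14.5 1 cell held 32 of 33 UMIs in myeloid-like, 67 of 124 in chondrogenic-like and 20 of 53 in osteogenic-like cells, and levels without it were 9.79, 128 and 65.6 CPM. At E15.5 1 cell held 109 of 322 UMIs in neuronal-like cells, without which the level was 584 CPM, and without the top cells the neuronal-like ratio was 1.53. The myeloid-like levels without the top cells were 9.79 and 5.04 CPM, which is under 2-fold.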

How the results depend on the processing

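No paired analysis was possible because each stage had 1 library and no replicate numbers, and for the same reason no library could be left out within a stage. Of 76 counts of members past 2-fold computed under alternatives, 68 stayed within 1.5 times the count reported. The 6 members higher and 1 lower from E13.5 to E15.5 in mesenchymal-like cells were 6 and 1 under each alternative, except for 7 higher at the fixed cluster mix. In mesenchymal-like cells from E14.5 to E15.5, where 0 were lower, 1 was with clusters in place of marker-chosen cells (Nnat, -1.15) and 1 at the fixed cluster mix (Nnat, -1.09), while Nnat was at 0.18 with doublets kept. In epithelial-like cells the 4 lower members became 2 with 1 more marker required, 1 with clusters and 1 over all cells of the library. The 0 higher became 1 with clusters, 1 with the mean over cells and 6 over all cells. Over all cells of the library Dlk1 (1.55), Mest (1.25) and Grb10 (0.97) reversed from a difference of at least 2-fold in epithelial-like cells, and Igf2 (2.08), Plagl1 (2.03), Cdkn1c (0.93) and Peg3 (0.68) changed sign from one under 2-fold, since that sum is mostly of other cell types. Of 300 values of single genes under alternatives, 230 moved by less than their interval, 67 moved by more (sign changes of values under 2-fold among them) and 3 reversed from past 2-fold, and of 70 under the alternatives chosen after the data were seen (fixed cluster mix, without the cluster holding most E13.5 mesenchymal-like cells, without the cell with most UMIs) 53 and 17. Dlk1 and Plagl1 in myeloid-like and Dlk1 in endothelial-like cells had at most a few UMIs, so depth limits those levels.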
